A study of Mus musculus with 35 samples.

Results

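A set of 10 genes had among the largest daily swings in regulatory T cells (Tregs) of the mouse spleen, with a peak near Zeitgeber time (ZT, hours after lights on) 7: Lamp1, Mgat2, Nsun2, Rac1, Zdhhc7, Aggf1, Ankle2, Prkch, Clptm1l and Kdm4b. They were selected by symbol on their 24 h amplitude in the spleen libraries. Each symbol had 1 row among the 55011 symbols of the count table, and each passed the filter on low counts that left 15910 genes to test. The spleen course over time chose these genes, so it is given as a description with no test. The course in visceral adipose tissue (VAT) and the difference in level between the tissues were not used in the choice, and they were tested. That difference does draw on the spleen libraries that chose the genes, so it is not wholly apart from the choice.

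RNA was sequenced from CD4+ CD25+ Tregs, sorted in a double sort at 1000 cells per library from VAT and spleen. Donors were WT male C57BL/6 mice, retired breeders over 35 weeks of age, under a 12:12 light:dark cycle. Both tissues were taken at ZT0, ZT4, ZT8, ZT12, ZT16 and ZT20, with 3 libraries per tissue and time except 2 for VAT at ZT20, so that 12 groups held 35 libraries (17 VAT, 18 spleen). No group had an allele or agent of its own. Each library carries a letter in the labels, which do not say whether letters stand for different mice. The p-values therefore reflect only how much these libraries varied, and that variation may be technical. In such bulk samples, fewer cells of a type and less RNA per cell cannot be told apart. Sorting on CD25 does not select Foxp3 itself, so the label was checked on markers. Foxp3, the transcription factor that defines Tregs, stood at 431 to 645 CPM in spleen and 585 to 837 CPM in VAT. Il2ra, which encodes CD25, ran at 311 to 407 CPM in spleen and 551 to 949.8 CPM in VAT. Cd3e and Cd4 were present in every library, while Cd8a had a median of 0 in both tissues.

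Libraries held 2069319 to 6260185 counts. Levels are in CPM, counts per 1000000 of the library size after trimmed mean of M values (TMM) scaling. The summed level of 5 B cell markers was 1197 to 1558 CPM in the spleen ZT8 libraries, 1448 to 3084 CPM in the other spleen libraries and 93.6 to 302 CPM in VAT. For 4 neutrophil markers (S100a8, S100a9, Mmp9 and Ly6g) the sum was 149.9 to 853 CPM in VAT against 4.72 to 17.1 CPM in spleen outside ZT8. In the spleen ZT8 libraries it was 5.94 to 9.68 CPM, all of it Mmp9, as the other 3 had no counts there. The part of each marker in the VAT sum was not examined, so that sum may rest on a single gene. Reads of mitochondrial genes made up 1.30% to 2.20% of the counts in spleen and 0.884% to 1.89% in VAT.

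Circadian timing in immune cells is set by a transcription loop in which the activators CLOCK and BMAL1 (Arntl) bind E-box elements and drive their own repressors, the Per and Cry genes, while REV-ERB proteins and PAR-bZIP factors such as Dbp and Tef pass the timing on to output genes. T cells also follow the daily light and feeding cycle through hormones, temperature and trafficking between blood and tissue. The 10 genes are not core clock genes: 4 encode proteins of the secretory and lysosomal membranes, 2 encode signalling proteins, and 4 encode proteins that act on RNA, chromatin or the nucleus.

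The promoters of the 2 genes with the largest spleen amplitudes among the 10 are shown first, because they differ in the letters of the E-box. Each sequence is the 250 bases before the RefSeq start of the gene (GRCm38.p6), 5′ to 3′ on the gene's strand, in lower case with each CACGTG E-box in capitals. Lamp1 is at chr8:13158911-13159160 on the plus strand, and Mgat2 is at chr12:69183908-69184157 on the plus strand.
Lamp1: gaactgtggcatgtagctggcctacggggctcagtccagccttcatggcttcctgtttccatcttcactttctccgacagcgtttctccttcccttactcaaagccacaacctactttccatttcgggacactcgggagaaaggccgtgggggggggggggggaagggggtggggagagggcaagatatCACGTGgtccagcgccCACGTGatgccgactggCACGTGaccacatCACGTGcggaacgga
Mgat2: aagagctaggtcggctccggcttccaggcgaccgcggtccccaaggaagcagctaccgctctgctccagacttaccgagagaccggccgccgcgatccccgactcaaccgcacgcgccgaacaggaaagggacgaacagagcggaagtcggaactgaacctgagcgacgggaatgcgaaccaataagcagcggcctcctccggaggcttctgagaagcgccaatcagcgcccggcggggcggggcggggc
Lamp1 held 4 E-boxes, which began 61, 45, 28 and 15 bases before the start, and Mgat2 held none. Of the 10 genes, 6 had an entry in the RefSeq promoter table: Lamp1, Mgat2, Nsun2, Zdhhc7, Aggf1 and Ankle2. Windows of 300 bases (250 before to 50 after the start) were searched on both strands for CACGTG, for the D-box letters TTATGTAA and TTATGCAA, for the cAMP element TGACGTCA and for AGGTCA, the core of the REV-ERB and ROR element. Each motif was counted on its own, with no correction where letters of one motif lie inside another. An E-box was in 1 of the 6 windows and in 7.15% of all 32817 windows of that length. At least 4 E-boxes were in 8 of the 32817 windows (0.0244%). That cut is the count found in Lamp1, whose window is among the 8, so this share is a description and not a test. The other motifs were in none of the 6 windows and in 0.935%, 0.744%, 1.79% and 16.3% of all windows, in the order given. A match shows letters in the window and not a bound site.

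The genes lay on 5 chromosomes: 5, 8, 12, 13 and 17 (whole genes, GENCODE M21 annotation of GRCm38, or mm10, counted from 1). Their longest annotated transcripts ran from 2229 nt for Lamp1 to 5215 nt for Ankle2, with a median of 3441.5 nt against 3065 nt over all genes tested. Length ranks ran from percentile 32.9 to percentile 81.8 of the tested genes. GC content of those transcripts was 45.7% to 58.7%. Per kilobase of longest transcript, Prkch had the highest mean level in spleen at 71.9 CPM per kb, followed by Lamp1 at 47.9 and Nsun2 at 29.8. Ankle2 and Kdm4b were lowest in spleen, at 8.71 and 9.71 CPM per kb. In VAT the order began with Lamp1 at 58.0 CPM per kb and ended with Kdm4b at 7.39.

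In splenic Tregs, each of the 10 genes had its highest mean level at ZT8 and its lowest at ZT16 or ZT20. Their fitted peak-to-trough amplitudes were 1.74 to 3.05 log2 units, with a median of 1.88 against 0.48 over all genes tested, and their fitted peaks fell between ZT6.75 and ZT8.19. These are the values that chose the genes. Over all genes, 1.99% (316 of 15910) passed an adjusted p of 0.05 for a 24 h course in spleen. Of those 316, 113 peaked from ZT5 to ZT9, and in the order of amplitude among the 113 the 10 genes took ranks from 3 to 24. The genes just outside were A530064N14Rik at 3.79 and Dusp2 at 3.63 above Lamp1, and Chmp7 at 1.73, Tusc2 at 1.68, Btaf1 at 1.67, Brap at 1.65 and Zfand5 at 1.65 below Kdm4b, the last of the 10. Between ranks 3 and 24 lay 12 genes that are not among the 10, so the 10 are not simply the largest amplitudes.

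**Figure D1:**
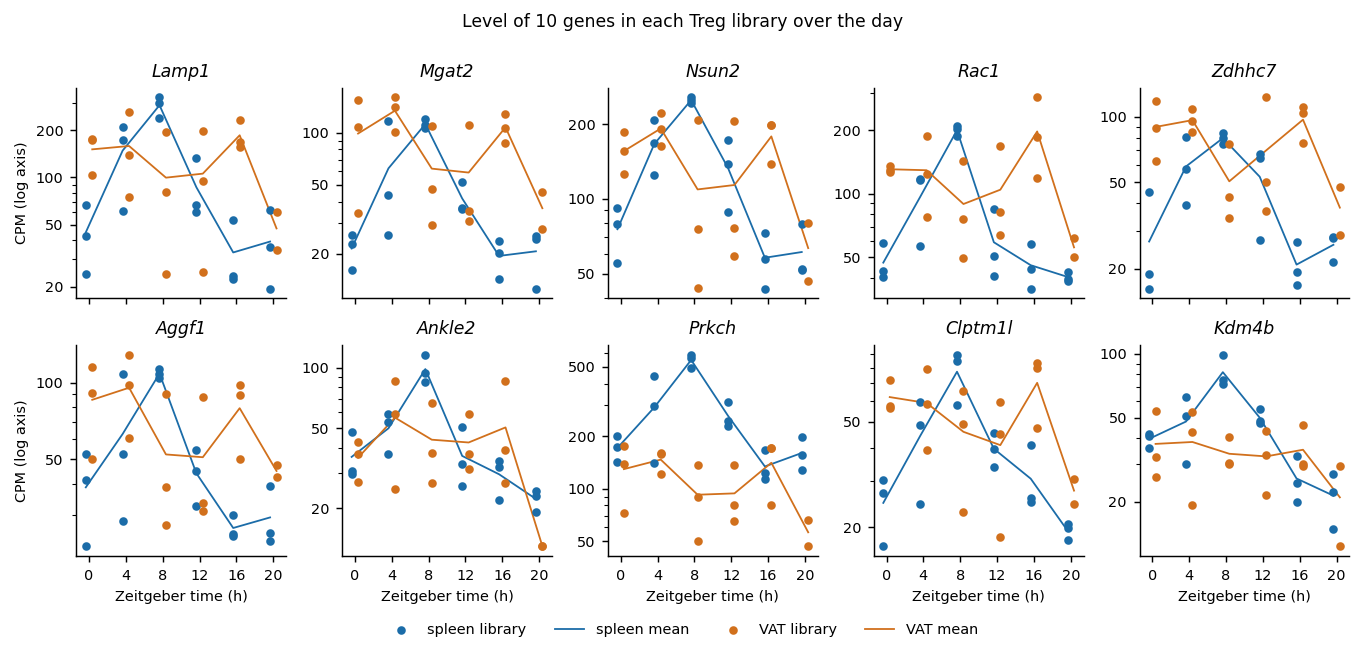
CPM (log axis) of each gene against Zeitgeber time, with 1 point per library and lines through the mean of each tissue and time. In spleen (blue) the mean at ZT8 is the highest of the 6 times in every panel, while in VAT (orange) libraries of 1 time are spread over much of the gene's range.

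Libraries below are given in the order of their letters: A, B, C at ZT0 and ZT16, B, C, D at ZT4 and ZT8, and A, B, D at ZT12. At ZT20 the letters are A, B, C in spleen and A, C in VAT. Among the membrane genes, Lamp1 (ENSMUSG00000031447.7, chr8:13159161-13175338, plus strand) encodes the main glycoprotein of the lysosomal membrane, which also reaches the cell surface when T cells release granules. In spleen it stood at 42.5, 24.1 and 67.1 CPM at ZT0, 209.9, 174 and 61.5 at ZT4, and 241, 326 and 301 at ZT8. Later in the cycle it stood at 60.1, 67.1 and 133 CPM at ZT12, 53.8, 23.3 and 22.4 at ZT16, and 61.6, 35.7 and 19.5 at ZT20. The 3 ZT8 libraries lay above every other spleen library. Their mean of 289 ± 43.6 CPM (SD, n = 3) compares with 38.9 ± 21.3 (SD, n = 3) at ZT20. The fitted amplitude was 3.05 ± 0.60 log2 (estimate ± SE) with a peak at ZT7.11.

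Mgat2 (ENSMUSG00000043998.10, chr12:69184157-69186770, plus strand) has a single exon and encodes the Golgi N-acetylglucosaminyltransferase that commits N-glycans to the complex type. Spleen levels were 16.1, 22.7 and 25.5 CPM at ZT0, 117, 43.9 and 25.5 at ZT4, and 106, 119.9 and 111 at ZT8. After that they were 36.0, 52.1 and 37.0 CPM at ZT12, 20.1, 23.8 and 14.4 at ZT16, and 12.6, 24.2 and 25.2 at ZT20. Here ZT4 library B lay among the ZT8 libraries, and every other spleen library was below them. The amplitude was 2.59 ± 0.52 log2 with a peak at ZT7.37.

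Zdhhc7 (ENSMUSG00000031823.14, chr8:120080890-120101482, minus strand) encodes a Golgi palmitoyltransferase that attaches lipid to cysteines of membrane proteins. In spleen it was measured at 18.9, 16.2 and 45.0 CPM at ZT0, 80.5, 57.5 and 39.2 at ZT4, and 79.8, 84.3 and 75.0 at ZT8. Then it was 27.0, 67.4 and 64.6 CPM at ZT12, 26.5, 19.3 and 16.9 at ZT16, and 28.1, 27.8 and 21.6 at ZT20. The ZT8 libraries were close to each other, ZT4 library B lay between them, and ZT12 libraries B and D came near. The amplitude was 1.90 ± 0.40 log2 with a peak at ZT7.44. Clptm1l (ENSMUSG00000021610.8, chr13:73604006-73620605, plus strand) encodes a membrane protein of the CLPTM1 family with a role in the synthesis of glycosylphosphatidylinositol (GPI) anchors. It stood at 27.0, 16.9 and 30.3 CPM at ZT0, 59.6, 48.7 and 24.4 at ZT4, and 89.5, 84.7 and 57.8 at ZT8 in spleen. The later values were 33.7, 45.6 and 39.5 CPM at ZT12, 40.9, 24.9 and 25.9 at ZT16, and 17.9, 20.6 and 19.8 at ZT20. ZT8 library D lay below ZT4 library B, and the 3 ZT20 libraries were among the lowest. Its amplitude was 1.77 ± 0.35 log2 and its peak, at ZT8.19, was the latest of the 10.

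Of the signalling genes, Rac1 (ENSMUSG00000001847.14, chr5:143503634-143528036, minus strand) encodes a small GTPase that drives actin assembly at the cell front and at the immune synapse. It was at 40.3, 43.2 and 58.3 CPM at ZT0, 117, 116 and 56.4 at ZT4, and 187, 203 and 209 at ZT8 in spleen. Afterwards it was at 51.1, 41.0 and 84.9 CPM at ZT12, 58.1, 44.2 and 35.6 at ZT16, and 38.9, 39.7 and 42.9 at ZT20. The ZT8 libraries stood clear of the rest, and the ZT20 libraries were within a narrow band. The amplitude was 2.14 ± 0.43 log2 with a peak at ZT7.29. Prkch (ENSMUSG00000021108.18, chr12:73584796-73778185, plus strand) encodes protein kinase C eta, a kinase of T cell receptor signalling. Its spleen levels were 172, 142 and 199.6 CPM at ZT0, 440.3, 299 and 139 at ZT4, and 492, 586 and 566 at ZT8. Its further levels were 228, 243 and 315 CPM at ZT12, 166, 123 and 113 at ZT16, and 197, 156 and 127 at ZT20. Again no other spleen library reached the ZT8 libraries, and ZT4 library B was nearest. The amplitude was 1.79 ± 0.37 log2 with a peak at ZT7.37.

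Nsun2 (ENSMUSG00000021595.18, chr13:69533746-69635780, plus strand) encodes a methyltransferase that makes 5-methylcytosine in transfer RNAs and other RNAs. In spleen it was present at 79.4, 55.4 and 91.6 CPM at ZT0, 208, 167 and 124 at ZT4, and 249.9, 244 and 257 at ZT8. The remaining times gave 88.4, 138 and 173 CPM at ZT12, 73.1, 43.4 and 57.2 at ZT16, and 79.3, 52.3 and 51.5 at ZT20. The 3 ZT8 libraries were within a narrow range above every other library. The amplitude was 2.17 ± 0.40 log2 with a peak at ZT7.29. Aggf1 (ENSMUSG00000021681.8, chr13:95350683-95375352, minus strand) encodes a protein with FHA and G-patch domains, known as an angiogenic factor. It ran at 22.6, 41.3 and 52.1 CPM at ZT0, 108, 52.2 and 28.4 at ZT4, and 113, 108 and 104 at ZT8. Then came 32.7, 44.9 and 54.2 CPM at ZT12, 30.1, 24.9 and 25.3 at ZT16, and 39.1, 25.5 and 23.8 at ZT20. ZT4 library B lay among the ZT8 libraries, and the other libraries lay well below them. The amplitude was 1.86 ± 0.41 log2, with the earliest peak of the 10 at ZT6.75.

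Ankle2 (ENSMUSG00000029501.14, chr5:110231004-110256651, plus strand) encodes a LEM domain protein needed to rebuild the nuclear envelope after mitosis. Spleen libraries had 29.5, 30.6 and 48.0 CPM at ZT0, 58.7, 53.7 and 37.4 at ZT4, and 84.8, 94.4 and 116 at ZT8. Those of later times had 33.0, 25.7 and 50.5 CPM at ZT12, 34.4, 22.0 and 32.2 at ZT16, and 24.4, 19.3 and 23.1 at ZT20. The ZT8 libraries lay above all others. The amplitude was 1.82 ± 0.40 log2 with a peak at ZT7.12. Kdm4b (ENSMUSG00000024201.12, chr17:56326062-56402870, plus strand) encodes a demethylase of histone H3 lysine 9. Its levels in spleen were 41.9, 36.0 and 41.1 CPM at ZT0, 62.3, 51.1 and 30.2 at ZT4, and 72.1, 99.0 and 75.0 at ZT8. They went on at 55.1, 46.9 and 47.9 CPM at ZT12, 33.0, 19.9 and 24.4 at ZT16, and 27.0, 22.3 and 14.8 at ZT20. The ZT8 libraries were again the top 3, with ZT4 library B next. The amplitude was 1.74 ± 0.28 log2, the smallest of the 10, with a peak at ZT7.23.

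In 6 of the 10 genes (Lamp1, Nsun2, Rac1, Ankle2, Prkch and Kdm4b) the 3 spleen ZT8 libraries lay above the other 15 spleen libraries, which held for 0.779% of all genes tested. This count comes from the values that chose the genes and is given beside its background only. In the other 4 the highest library outside ZT8 overlapped ZT8. It was ZT4 library B in each of the 10 genes, a library that was the highest outside ZT8 for 6.65% of all genes. Within ZT4, library B was the highest and library D the lowest for each of the 10 genes, against 37.3% and 32.7% of all genes. The deviation of a gene in a library is its log2 CPM less its mean over the tissue. Averaged over the 10 genes, the deviation was 1.29 to 1.44 in the ZT8 libraries, -0.29 to 1.04 at ZT4, -0.94 to -0.58 at ZT20 and -0.90 to -0.36 at ZT16. The B cell marker sums of the ZT8 libraries, given above, overlapped those of the other spleen libraries. The T cell marker sum was 1565 to 1696 CPM at ZT8 and 1671 to 2491 CPM in the other spleen libraries. Over the 18 spleen libraries the mean deviation of the 10 genes had r = -0.63 with the B cell sum and r = -0.67 with the T cell sum (Pearson, libraries share their time group). The Treg marker sum was 2165 to 2287 CPM at ZT8 and 2193 to 2879 CPM in the other spleen libraries, with r = -0.63. The part of any of these in the spleen course was not tested.

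**Figure D2:**
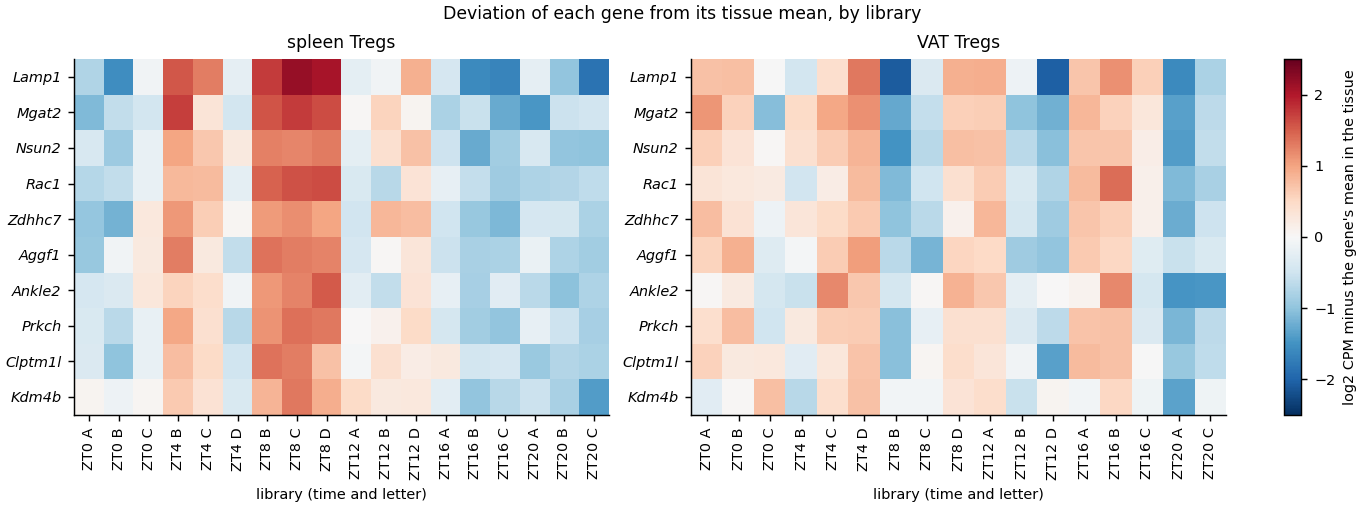
Deviation of each gene from its tissue mean (log2 CPM), by library (columns, grouped by time) and gene (rows), with red above and blue below the mean. Most of the 10 genes deviate in the same direction within a library: spleen ZT8 libraries average 1.29 to 1.44 log2 above the mean, and in VAT single libraries of ZT8, ZT12 and ZT20 are low across most rows.

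In VAT, the same genes had no daily course that passed the test. None of the 10 (0 of 10) passed an adjusted p of 0.05 for a 24 h rhythm in edgeR's quasi-likelihood test with Benjamini-Hochberg adjustment over 15910 genes, where 1.88% of genes (299 of 15910) did. At an unadjusted p of 0.05 the count was also 0 of 10, against 2789 of all genes, and DESeq2 called 0 of 10. VAT amplitudes were 0.16 to 0.83 log2 with a median of 0.29, against 0.52 over all genes, and the adjusted p values ran from 0.536 to 0.988. Each amplitude was smaller than the same gene's spleen amplitude. That difference was not tested, because the spleen amplitude chose the genes. The SEs of the VAT amplitudes were 0.29 to 0.60 log2, so a missed threshold does not show that the levels were constant. Both tissues shared 1 estimate of the spread per gene, so these SEs cannot show which tissue was measured more precisely. The SD between libraries of the same time was larger in VAT for each of the 10 genes, with a median of 0.62 against 0.41 log2 in spleen. Over all genes the medians were 0.46 log2 in VAT and 0.42 log2 in spleen, and the share with a larger SD in VAT was not counted. Spleen libraries chose the genes, and a small spread there favours a gene in such a choice, so this comparison is a description only. Without the ZT20 libraries of both tissues the VAT amplitudes were 0.16 to 1.08 log2, and 0 of 10 passed. Leaving out 1 library moved the VAT amplitude by over 1.5 times in 8 of the 10 genes (not in Mgat2 or Aggf1). The range was 0.017 (without VAT ZT0 B) to 0.53 log2 (without VAT ZT20 A) for Lamp1, 0.17 (without VAT ZT4 D) to 0.50 log2 (without VAT ZT12 A) for Nsun2, 0.10 (without VAT ZT16 B) to 0.71 log2 (without VAT ZT20 A) for Rac1, and 0.062 (without VAT ZT0 A) to 0.59 log2 (without VAT ZT12 A) for Zdhhc7. It was 0.55 (without VAT ZT20 C) to 1.32 log2 (without VAT ZT16 B) for Ankle2, 0.17 (without VAT ZT12 D) to 0.49 log2 (without VAT ZT16 B) for Prkch, 0.051 (without VAT ZT12 D) to 0.45 log2 (without VAT ZT20 A) for Clptm1l, and 0.16 (without VAT ZT4 D) to 0.53 log2 (without VAT ZT16 B) for Kdm4b. Such a shift in at least 1 gene came from each VAT library but VAT ZT16 C and from no spleen library. With any 1 library left out, the smallest adjusted p among the 10 genes was 0.103 (edgeR).

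The VAT libraries of a single time differed widely. Their order by level was the same for 9 of the 10 genes at ZT4, for 8 at ZT8, for 8 at ZT12 and for 10 at ZT20, where there are 2 libraries. The order at ZT20, with library C above library A, held for 50.2% of all genes. For the full orders at the other times the share of all genes was not counted, so those counts have no background. At ZT16 the genes split 5 to 5 between 2 orders, and at ZT0 no order held for more than 4. Lamp1 stood at 174, 176 and 103 CPM at ZT0, 75.3, 139 and 262 at ZT4, and 24.3, 80.7 and 194 at ZT8 in VAT. Its later levels were 197, 94.9 and 25.0 CPM at ZT12, 169, 231 and 157 at ZT16, and 34.3 and 60.2 at ZT20. At ZT8 library D held 7.98 times the level of library B, and at ZT12 library A held 7.89 times that of library D. In a 24 h fit the VAT amplitude was 0.16 ± 0.60 log2 (adjusted p = 0.988, edgeR). Mgat2 stood at 154, 108 and 34.3 CPM at ZT0, 101, 140.4 and 161 at ZT4, and 29.4, 47.3 and 109 at ZT8. At the other times it stood at 110.3, 35.4 and 30.9 CPM at ZT12, 128, 107 and 87.3 at ZT16, and 27.8 and 45.5 at ZT20. ZT0 library C, ZT8 library B, ZT12 libraries B and D and both ZT20 libraries were low. The Mgat2 amplitude was 0.56 ± 0.49 log2 (adjusted p = 0.766, edgeR).

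Zdhhc7 was at 118, 88.6 and 62.8 CPM at ZT0, 85.0, 95.9 and 108 at ZT4, and 34.1, 42.8 and 74.6 at ZT8 in VAT. Later it was at 123, 50.3 and 36.8 CPM at ZT12, 111, 104 and 75.6 at ZT16, and 28.8 and 47.7 at ZT20. The ZT20 libraries were low, and ZT12 held both the highest VAT library and one of the low ones. The amplitude was 0.27 ± 0.40 log2 (adjusted p = 0.927, edgeR). Clptm1l had 71.9, 56.6 and 57.5 CPM at ZT0, 39.3, 58.3 and 79.2 at ZT4, and 22.9, 49.3 and 65.5 at ZT8. Later libraries had 59.3, 44.9 and 18.4 CPM at ZT12, 83.2, 80.0 and 47.5 at ZT16, and 24.6 and 30.5 at ZT20. The lowest was ZT12 library D and the highest ZT16 library A. The amplitude was 0.21 ± 0.35 log2 (adjusted p = 0.941, edgeR).

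Rac1 levels in VAT were 136, 129 and 127 CPM at ZT0, 77.3, 124 and 187 at ZT4, and 49.7, 75.9 and 143 at ZT8. Later levels were 167, 82.4 and 63.9 CPM at ZT12, 186, 286 and 118 at ZT16, and 50.1 and 61.5 at ZT20. The ZT0 libraries lay close together, whereas ZT8 and ZT12 each spanned more than a doubling. The amplitude was 0.41 ± 0.43 log2 (adjusted p = 0.843, edgeR). Prkch levels were 139, 176 and 72.7 CPM at ZT0, 122, 158 and 160.1 at ZT4, and 49.7, 89.8 and 137 at ZT8 in VAT. In later libraries they were 136, 80.0 and 65.2 CPM at ZT12, 170.4, 172 and 80.1 at ZT16, and 46.5 and 65.7 at ZT20. The ZT20 libraries overlapped the low libraries of ZT8 and ZT12. The amplitude was 0.26 ± 0.37 log2 (adjusted p = 0.908, edgeR).

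For Nsun2 the VAT values were 187, 156 and 126 CPM at ZT0, 163, 192 and 222 at ZT4, and 43.5, 75.9 and 208 at ZT8. Those of later times were 206, 76.6 and 59.0 CPM at ZT12, 199.6, 199 and 138 at ZT16, and 46.5 and 80.1 at ZT20. ZT8 libraries ranged from the lowest VAT value to one of the highest. The amplitude was 0.28 ± 0.40 log2 (adjusted p = 0.903, edgeR). Aggf1 gave 91.2, 115 and 50.0 CPM at ZT0, 60.4, 97.4 and 128 at ZT4, and 38.8, 27.5 and 90.1 at ZT8. Later it gave 87.7, 33.5 and 31.2 CPM at ZT12, 98.3, 89.5 and 50.0 at ZT16, and 42.3 and 47.4 at ZT20. Libraries at ZT8 and ZT12 again fell on both sides of the ZT20 libraries. The amplitude was 0.60 ± 0.40 log2 (adjusted p = 0.652, edgeR).

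Ankle2 libraries in VAT had 37.2, 42.8 and 27.0 CPM at ZT0, 24.9, 85.5 and 58.9 at ZT4, and 26.8, 37.7 and 67.0 at ZT8. The rest had 58.9, 31.4 and 37.1 CPM at ZT12, 39.1, 85.5 and 26.8 at ZT16, and 12.9 and 13.0 at ZT20. Both ZT20 libraries lay below the other 15 VAT libraries, in 1 of the 10 genes, where 5.59% of all genes had this pattern. These 2 libraries, A and C, also stood apart in mitochondrial share, at 1.89 and 1.47% against at most 1.27% in the other VAT libraries. Their T cell marker sums were 2790.3 and 2578 CPM against at most 2351, and their B cell sums 302 and 291 CPM against at most 242. The part of these in the ZT20 levels was not tested. Ankle2 had the largest VAT amplitude of the 10, at 0.83 ± 0.42 log2 with a peak at ZT8.54 (adjusted p = 0.536, edgeR), and 0.16 log2 without the ZT20 libraries. Kdm4b had 26.2, 32.6 and 53.8 CPM at ZT0, 19.4, 42.5 and 53.1 at ZT4, and 30.5, 30.3 and 40.4 at ZT8. After that it had 43.4, 21.5 and 33.3 CPM at ZT12, 30.2, 46.0 and 29.5 at ZT16, and 12.3 and 29.7 at ZT20. The ranges of ZT8 and ZT20 did not meet, and those of the other times overlapped. The amplitude was 0.31 ± 0.29 log2 (adjusted p = 0.824, edgeR).

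The 10 genes moved together between VAT libraries of the same time, a comparison in libraries that did not choose them. After the mean of each time was removed, the 45 pairs of genes had a median Pearson r of 0.79 over the 17 VAT libraries, from 0.19 to 0.94, and 38 of 45 were above 0.5. Over all tested genes, r with the mean of the 10 had a median of 0.00395, and 0.930% of genes (148) exceeded 0.8. That background is for r with a mean and not for r between pairs. The share of all gene pairs above 0.5 was not counted. Kdm4b followed least, with r = 0.44 against the mean of the other 9, and the rest had r from 0.76 for Ankle2 to 0.94 for Rac1. In spleen, whose libraries chose the genes, the median r within times was 0.63 over 18 libraries. These are descriptions over libraries that share depth and composition within each library.

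Named by library, VAT ZT8 D and VAT ZT12 A were the highest of their times for each of the 10 genes, against 34.8% and 35.2% of all genes. VAT ZT4 B and VAT ZT16 C were the lowest of their times for each of the 10, against 29.4% and 30.6% of all genes. VAT ZT8 B and VAT ZT12 D were each the lowest for 8 of the 10, against 32.7% and 31.0% of all genes. The SD between VAT libraries of 1 time was 0.54 to 1.02 log2, with a median of 0.62 against 0.46 over all genes. Among genes within 0.5 log2 of the same level, these SDs ranked between percentiles 93.3 and 99.9. Lamp1 had the largest of the 10. In spleen the corresponding SDs were 0.34 to 0.71 log2, at percentiles 72.6 to 99.6, so the spread was high for the level in spleen also, least so in Kdm4b and Ankle2. The mean deviation of the 10 genes over the 17 VAT libraries had r = 0.44 with the total count and r = -0.39 with the mitochondrial share. By marker sum, r was 0.54 for neutrophils, -0.49 for CD8 T cells and -0.45 for B cells. It was -0.41 for dendritic cells and -0.40 for natural killer cells. The other marker sums ran from -0.30 (Treg) to 0.27 (adipocyte). The part of these in the spread was not tested.

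**Figure D3:**
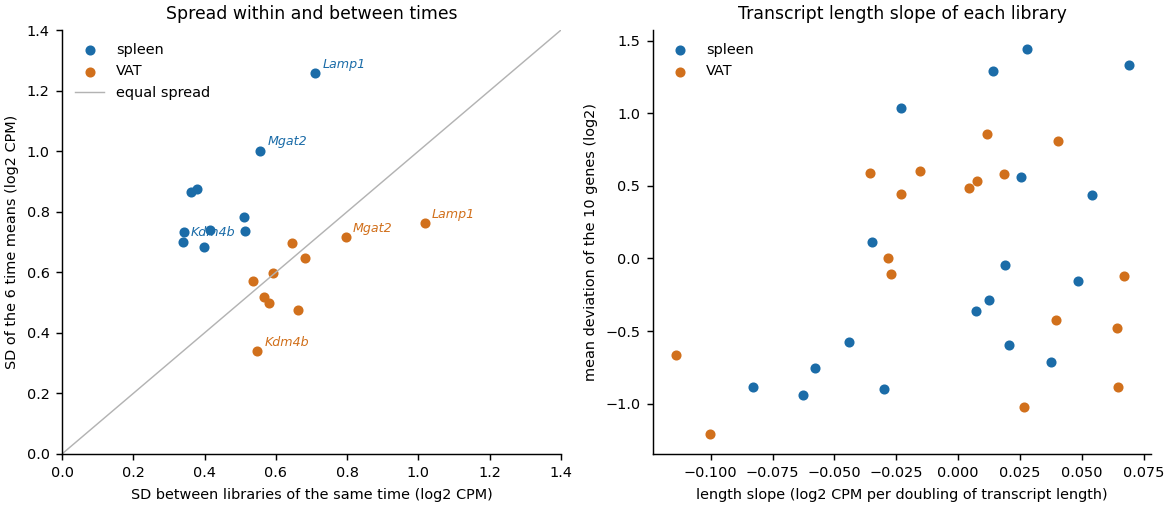
Left, the SD of the 6 time means against the SD between libraries of the same time (both log2 CPM), 1 point per gene and tissue with a line of equal spread: the spleen points lie above the line, and the VAT points lie near or below it. Spleen values chose the genes, so the place of the spleen points is a description only. Right, mean deviation of the 10 genes against the transcript length slope of each library: the 2 VAT libraries with the lowest slopes, -0.114 and -0.100, are those of ZT20.

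Transcript length was set beside these values through the length slope of each library, the slope over all genes of that deviation on the log2 length of the longest transcript. A positive slope means that long transcripts stood high in that library. Slopes were -0.0827 to 0.0689 in spleen and -0.114 to 0.0670 in VAT. At ZT8 the spleen libraries had slopes of 0.0142 to 0.0689, and at ZT20 they had -0.0626 to -0.0439. In spleen the slope had r = 0.54 with the mean deviation of the 10 genes over 18 libraries, and 0.03 once the time means were removed. In VAT the values were 0.14 and -0.33 over 17 libraries. The median spleen amplitude of the 10 genes was 1.92 log2 with the slope as a covariate, against 1.88 without it. Ankle2, the longest of the 10, moved most, from 1.82 to 1.36 log2. A test added after seeing the data asked whether each gene followed the slope between VAT libraries of the same time. None of the 10 passed (0 of 10, edgeR, adjusted p from 0.117 to 0.915), where 4.58% of all genes did. At an unadjusted p of 0.05, Mgat2 and Zdhhc7 passed, both with lower levels at higher slopes, and 8 of the 10 estimates were negative.

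Averaged over the day, 5 of the 10 genes were higher in VAT and 2 were lower, at an adjusted p of 0.05 in edgeR. Over all genes the shares were 28.4% higher and 33.8% lower, so differences of either sign were common. The fold change is the mean of the 6 VAT times minus the mean of the 6 spleen times, and its median over all genes was -0.10 log2. The spleen mean includes the ZT8 libraries, whose high levels are part of what chose the genes. Of the membrane genes, Mgat2 averaged 85.7 ± 47.0 CPM (SD, n = 17) in VAT and 46.3 ± 38.4 CPM (SD, n = 18) in spleen. Its VAT mean was above its spleen mean at 5 of 6 times, and the difference was 1.05 ± 0.23 log2 (estimate ± SE, adjusted p = 0.000376, edgeR). Zdhhc7, at 75.7 ± 31.5 CPM (SD, n = 17) in VAT and 44.2 ± 25.1 CPM (SD, n = 18) in spleen, was also higher at 5 of 6 times. The difference for Zdhhc7 was 0.83 ± 0.17 log2 (adjusted p = 0.000139, edgeR). Clptm1l averaged 52.3 ± 20.4 CPM (SD, n = 17) in VAT and 39.3 ± 21.7 CPM (SD, n = 18) in spleen, a difference of 0.46 ± 0.15 log2 (adjusted p = 0.00839, edgeR). Lamp1, at 129 ± 73.4 CPM (SD, n = 17) in VAT and 107 ± 99.8 CPM (SD, n = 18) in spleen, differed by 0.56 ± 0.28 log2 and did not pass (adjusted p = 0.0835, edgeR). Leaving out VAT ZT8 B or VAT ZT12 D, the 2 VAT libraries where Lamp1 was lowest, brought its adjusted p to 0.0356 or 0.0342 (edgeR).

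The 2 signalling genes differed in opposite directions. Prkch averaged 113 ± 46.2 CPM (SD, n = 17) in VAT and 261 ± 156 CPM (SD, n = 18) in spleen. It was lower in VAT at 5 of 6 times, with a difference of -1.15 ± 0.16 log2 (adjusted p = 1.17e-06, edgeR), the largest difference of the 10. At ZT8 the spleen libraries held 548 ± 49.5 CPM and the VAT libraries 92.2 ± 43.8 CPM (SD, n = 3 each). A high spleen level at that time is part of what chose Prkch, so the gap at ZT8 is a description only. Rac1 averaged 121 ± 61.8 CPM (SD, n = 17) in VAT and 81.5 ± 59.7 CPM (SD, n = 18) in spleen, a difference of 0.69 ± 0.16 log2 (adjusted p = 0.000721, edgeR). Its direction was turned only at ZT8, where the spleen mean was above the VAT mean. Of the nuclear and RNA genes, Aggf1 was higher in VAT by 0.51 ± 0.20 log2 (adjusted p = 0.0263, edgeR). Kdm4b was lower, with a difference of -0.31 ± 0.14 log2 (adjusted p = 0.0473, edgeR). Nsun2, at 0.25 ± 0.18 log2 (adjusted p = 0.232), and Ankle2, at -0.13 ± 0.16 log2 (adjusted p = 0.506), did not pass in edgeR. The Kdm4b call was lost when any 1 of 23 of the 35 libraries was left out (adjusted p up to 0.157, without VAT ZT20 A, edgeR). It held without VAT ZT0 C, spleen ZT0 B, VAT ZT4 D, spleen ZT4 D, VAT ZT8 D, spleen ZT8 B, spleen ZT8 D, VAT ZT12 A, VAT ZT16 B, spleen ZT16 B, VAT ZT20 C or spleen ZT20 C, each left out alone, and was lost with the length slope as a covariate (0.0559) and with the replicate block (0.101). The Aggf1 call was lost without VAT ZT8 D, VAT ZT12 A or VAT ZT20 C (adjusted p 0.0542, 0.0555 and 0.0552, edgeR), with no filter (0.0586), without the ZT20 libraries of both tissues (0.0555) and with the replicate block (0.135). With library totals in place of TMM the median of all genes was at -0.45 log2, a shift of -0.34, and 2 of the 10 were called higher and 3 lower: Rac1, Aggf1 and Clptm1l lost their calls (0.34, 0.16 and 0.11 log2), Ankle2 was called lower (-0.48) and Nsun2 turned to -0.10.

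**Figure D4:**
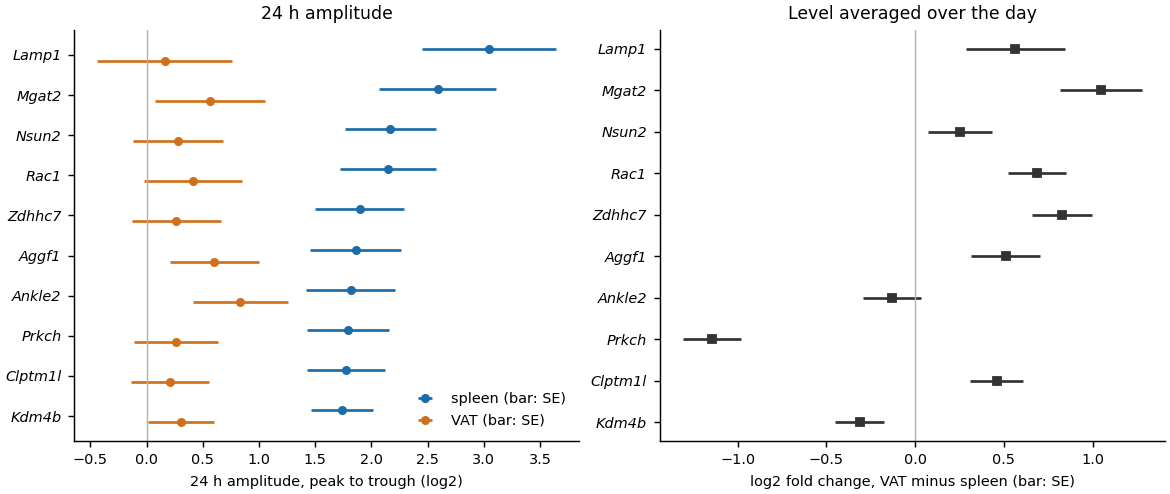
Left, fitted 24 h amplitude (log2, peak to trough, bars are SE) of each gene in spleen and VAT: each spleen value is larger than the VAT value of the same gene. Right, log2 fold change of VAT minus spleen averaged over the day (bars are SE), from 1.05 for Mgat2 to -1.15 for Prkch.

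Clock genes in the same libraries served as a reference for timing (edgeR, all genes adjusted together). Tef had 1.56 ± 0.21 log2 in VAT (peak ZT10.28, adjusted p = 0.000613) and 1.18 ± 0.20 in spleen (peak ZT6.54, adjusted p = 0.00478). Per2 had 3.04 ± 0.53 log2 in VAT (peak ZT13.21, adjusted p = 0.00453) and 0.56 ± 0.40 in spleen (peak ZT9.63, adjusted p = 0.751). Nr1d2 had 1.85 ± 0.44 log2 in VAT (peak ZT9.43, adjusted p = 0.0480) and 1.62 ± 0.43 in spleen (peak ZT6.93, adjusted p = 0.102). Arntl had 0.76 ± 0.17 log2 in VAT (peak ZT0.24, adjusted p = 0.0278) and 0.39 ± 0.17 in spleen (peak ZT20.13, adjusted p = 0.430). The fitted VAT peaks of Nr1d2, Tef and Per2 fell from ZT9.43 to ZT13.21, and that of Arntl at ZT0.24. Tef, a PAR-bZIP output gene, was the one of them that passed in both tissues. Per3 had 1.27 ± 0.34 log2 in VAT (peak ZT11.64, adjusted p = 0.0718) and 0.94 ± 0.36 in spleen (peak ZT4.80, adjusted p = 0.340). Dbp had 0.56 ± 0.38 log2 in VAT (peak ZT7.56, adjusted p = 0.689) and 0.69 ± 0.36 in spleen (peak ZT9.28, adjusted p = 0.535). Neither passed. The correlation of these 6 genes with the mean of the 10 genes over 35 libraries, tissue means removed, ran from -0.17 for Arntl to 0.53 for Dbp.

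The genes whose pattern was most like the mean of the 10 (Pearson r over 35 libraries, tissue means removed, standardised log2 CPM) were Esyt1 (r = 0.966), Arhgef1 (r = 0.957), Rnf10 (r = 0.939), Otulinl (r = 0.936) and Anp32b (r = 0.931). The 10 genes themselves had r from 0.81 for Kdm4b to 0.96 for Prkch, each being part of that mean. The spleen amplitudes of the 5 were 1.21 to 1.60 log2 with peaks from ZT7.14 to ZT7.65. Libraries of both tissues entered that correlation, so these courses follow in part from the choice. In spleen, Arhgef1 (adjusted p = 0.107, edgeR) and Rnf10 (adjusted p = 0.0733, edgeR) did not pass 0.05. Esyt1, Otulinl and Anp32b did, with adjusted p from 0.030 to 0.034 (edgeR). The VAT amplitudes of the 5 were 0.19 to 0.34 log2, and 0 of 5 passed in VAT (adjusted p from 0.840, edgeR).

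Lists of relatives of the 10 genes, drawn up from family membership with the results of these data known, were measured in the same fit. Of 144 relatives, 139 were tested, and their median spleen amplitude was 0.38 log2, against 0.48 over all genes. A 24 h course passed in 4 of 139 in VAT and in 4 of 139 in spleen (edgeR), against the 1.88% and 1.99% over all genes. Between tissues, 54 were higher and 42 lower in VAT, and the shares to set beside this and each list below are 28.4% and 33.8% of all genes. Fold changes below are VAT minus spleen from edgeR with its adjusted p. Among 18 relatives of Lamp1 in the lysosomal membrane, 8 were higher in VAT and 2 lower, led by Laptm4b (1.73 ± 0.11 log2, adjusted p = 2.69e-16) and Npc1 (-0.71 ± 0.09 log2, adjusted p = 2.48e-08), the cholesterol exporter of the lysosome. Of 13 genes of Golgi N-glycan processing, 7 were higher and 4 lower, led by Fut8 (1.13 ± 0.08 log2, adjusted p = 1.05e-14), the core fucosyltransferase, and Mgat4a (-1.35 ± 0.10 log2, adjusted p = 3.41e-15), which adds a further branch. The 19 DHHC palmitoyltransferases had 9 higher and 2 lower, led by Zdhhc23 (1.94 ± 0.14 log2, adjusted p = 5.72e-15) and, among those lower, by Zdhhc14, whose mean was 1.47 CPM over the spleen libraries and 0.0570 CPM over those of VAT.

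GPI anchor synthesis and the CLPTM1 family, with 21 relatives of Clptm1l tested, had 6 higher and 8 lower, led by Pigs (0.47 ± 0.06 log2, adjusted p = 3.11e-08) and Pigv (-0.65 ± 0.10 log2, adjusted p = 6.36e-07). Pigg of that list passed for rhythm in VAT, at 1.95 log2 with a peak at ZT8.49 (adjusted p = 0.0140, edgeR). Clptm1, the namesake of the family, was singled out after its values were seen: it had a spleen amplitude of 1.41 log2 (peak ZT6.74, adjusted p = 0.0705, edgeR) and r = 0.90 with the mean of the 10 over 35 libraries. Of 11 small GTPases related to Rac1, 7 were higher and 3 lower, led by Cdc42 (0.90 ± 0.05 log2, adjusted p = 4.23e-19) and Rhoh (-0.46 ± 0.07 log2, adjusted p = 1.75e-07), and Rac2 passed for rhythm in VAT at 0.58 log2 with a peak at ZT19.55 (adjusted p = 0.00453, edgeR). The 10 tested kinases of the protein kinase C and D families had 4 higher and 5 lower. Among those lower, Prkcq (-1.89 ± 0.07 log2, adjusted p = 7.35e-23), the theta isoform of T cell receptor signalling, came first, in the same direction as Prkch.

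Of 7 other RNA cytosine-5 methyltransferases, 3 were higher and 3 lower, led by Nsun7 (1.65 ± 0.41 log2, adjusted p = 0.000641) and Nop2 (-0.42 ± 0.08 log2, adjusted p = 2.26e-05). Among 15 G-patch proteins beside Aggf1, 3 were higher and 8 lower, led by Tfip11 (0.56 ± 0.08 log2, adjusted p = 1.47e-07) and Rbm5 (-0.48 ± 0.05 log2, adjusted p = 5.41e-11), both of pre-mRNA splicing. The 10 genes of the nuclear envelope list had 4 higher and 1 lower. Lmna, which encodes A-type lamins, averaged 1790.2 CPM over the VAT libraries and 11.1 CPM over those of spleen, a change of 7.38 ± 0.20 log2 (adjusted p = 9.21e-21, edgeR), and the one that was lower was Lemd2 (-0.62 ± 0.17 log2, adjusted p = 0.00173). Of 15 histone lysine demethylases beside Kdm4b, 3 were higher and 6 lower, led by Kdm6b (2.94 ± 0.11 log2, adjusted p = 1.03e-21) and Kdm2a (-0.68 ± 0.06 log2, adjusted p = 7.16e-13). In that list, Kdm3a had a VAT rhythm of 1.24 log2 with a peak at ZT8.17 (adjusted p = 0.0187, edgeR), and Kdm4c, a close paralog of Kdm4b, had one of 0.92 log2 with a peak at ZT9.30 (adjusted p = 0.0391, edgeR).

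Genes on the opposite strand overlap 6 of the 10, and the strand setting of the counting is not given, so their reads cannot be told apart in the overlap. The largest such neighbour by count was Daglb, which shares 2309 bases with Rac1 and had 47 to 264 counts per library. Mgat2 lies wholly inside Gm49383, which had 0 to 2 counts per library. Nsun2 overlaps Srd5a1, with 0 to 8 counts, and Tent4a, with 6 to 93. Lamp1 overlaps Grtp1, with 0 to 76. Ankle2 overlaps Gm43137, with 0 to 5. Zdhhc7 overlaps Gm15898, with 0 to 8 counts, and Gm20388, which was not analysed here.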

How the data were processed

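The deposited values were raw read counts for each gene symbol. The submitters' processing notes name STAR 2.7.3a, featureCounts and mm10. Which featureCounts version, annotation and strand setting were used, and how reads with several matches were handled, is not given in the sources used here. An oligo(dT) primer started the cDNA, which was amplified by PCR, per the labels' protocols, and Nextera XT libraries were read as pairs of 25 nt. No molecular identifiers are mentioned, so amplified copies are not independent molecules. Columns were matched to samples by their descriptions.

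The analysis used edgeR 4.0.16 under R 4.3.3: filterByExpr over 12 groups (15910 of 55011 symbols kept), TMM scaling, robust quasi-likelihood F tests and Benjamini-Hochberg adjustment over the 15910 genes at 0.05. Rhythm was a cosine and a sine of 24 h per tissue in 1 model over 35 libraries. The tissue contrast was the mean of 6 VAT groups minus that of 6 spleen groups. Correlations used log2 CPM with a prior count of 2. Scripts were tested on simulated data. None of the 34 library pairs within a group agreed within sampling noise (chi-square per gene 4.10 to 20.0).

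The members, the related gene lists and the tests were chosen with earlier results of these data known. Other genes named are the 5 neighbours in amplitude on each side (2 exist above), the 5 most alike, at most 4 per related list (smallest adjusted p in each direction and any VAT rhythm) and 6 clock genes. Some items that this rule names are not reported here. Alternatives were library totals, DESeq2 1.42.0, no filter, a length slope covariate, no ZT20, single tissues, a replicate block and leaving out each library.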

Additional observations from a re-analysis of the deposited data

How the results depend on the processing

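The count of the 10 genes called for rhythm in VAT was 0 under each alternative run, and the count called between tissues was 5 to 7. The number of all genes called for rhythm in VAT, 299, was 196 with library totals, 1572 with no filter, 28 with the length slope as a covariate, 17 without ZT20, 663 with DESeq2, 42 with VAT alone and 54 to 1008 when each library was left out in turn (lowest without VAT ZT20 A, highest without VAT ZT0 C). For spleen, 316 became 1446 with no filter, 98 with the length slope, 853 with DESeq2, 584 with spleen alone and 98 to 569 with 1 library left out (lowest without spleen ZT16 B, highest without spleen ZT16 A). The median spleen amplitude of the 10 genes, 1.88 log2, was 2.34 without ZT20, and the range of length slopes over libraries, 0.183, was 0.421 over genes of at least 10 CPM. With library totals, the tissue difference of Nsun2 reversed to -0.0989 log2. The cause of these shifts was not tested, beyond fewer or more genes or samples entering the fit. Over 17 pairs of VAT and spleen libraries with the same time and letter, the correlation of deviations over genes was -0.112 to 0.0575. The mean of the 10 genes, as a deviation from its group mean, had r = -0.54 over these pairs. Whether libraries of the same letter came from the same mouse was not tested, and the labels do not say. Within a tissue, libraries of the same letter at different times exceeded a correlation of 0.1 in 0 of 29 VAT pairs and 2 of 34 spleen pairs. With the letter as a replicate block, 124 genes were called for rhythm in VAT and 171 in spleen, and 0 and 5 of the 10 genes were called for VAT rhythm and between tissues. With 2 libraries at VAT ZT20 and 3 elsewhere, VAT amplitudes carried SEs of 0.29 to 0.60 log2, which limits what the VAT course can show. Those SEs rest on a spread shared with spleen. Libraries of the same time varied less there for these genes, which spleen values chose.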
